A study of Mus musculus with 6 samples.

Results

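The genes described here are those of neutrophil granules, of the granulocyte precursors that fill them, and of mature and activated neutrophils. They were chosen by name, with earlier results of these data known. Of 35 symbols listed, 34 had a row among the 55291 gene symbols of the table, and Trem3l was not analysed here. Of the 34, 5 are primary granule and promyelocyte genes, 14 are other granule and granulocyte precursor genes, and 15 are mature and activated neutrophil genes. The samples were tumour-associated macrophages of mouse liver tumours (hepatocellular carcinoma), with 3 libraries labelled TREM2+ and 3 labelled TREM2- for the lipid-sensing surface receptor TREM2. All 6 libraries were polyadenylated RNA from liver tumour. The sources used here do not give strain, age, tumour model, sorting gates, or whether replicates came from separate animals. The p-values therefore measure only the spread between libraries, which may be technical.

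Neutrophils are made in the bone marrow in stages, and each stage fills its own granules. Promyelocytes make the primary granules with myeloperoxidase and serine proteases, later precursors make granules with lactoferrin, cathelicidin and gelatinase or collagenase, and mature cells stop granule synthesis and carry chemokine and growth factor receptors. Transcripts of granule proteins are therefore read as marks of immature cells and transcripts such as Cxcr2 as marks of mature ones, and several genes of the mature group are also made by activated monocytes and macrophages.

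Levels are given as TPM, a length-scaled share, after each library was rescaled to a total of 1000000, so that levels of different genes compare per length. Recovered depth in whole reads ranged from 11493465 to 19929829 per library. The share of the Gm10800 repeat family ranged from 0.70% to 17.5% over TREM2+ replicates and from 0.43% to 24.6% over TREM2- replicates. Trem2 itself stood at 37.0 ± 5.51 TPM (SD, n = 3) against 19.5 ± 2.28 TPM, with no overlap of the groups and an adjusted p of 0.0855 in limma, so the label was met in direction but the difference did not pass the threshold. Macrophage markers were present in all 6 libraries, with all 8 above 0. They summed to 5568 to 7698 TPM in the TREM2+ and 2815 to 2894 TPM in the TREM2- libraries. In limma 3 were called higher, C1qa and Lgmn among them, where 2.05% of all genes tested were. Endothelial markers summed to 156 to 229 TPM in TREM2+ and 15.1 to 32.5 TPM in TREM2- replicates. All 6 had higher values in the TREM2+ libraries without overlap of the groups, where this held for 9.07% of all genes tested. Of the 6 markers, 5 passed the test in limma, where 2.05% of all genes tested were called higher. The T and NK, B cell and hepatocyte lists gave 0 calls in limma. At an unadjusted p under 0.05, 2 T and NK genes were lower, where 5.34% of all genes tested were. The neutrophil genes S100a8, S100a9, Csf3r, Cxcr2 and Retnlg were present in all 6 libraries as well, S100a8 at between 2294 and 6186 TPM, whereas Ly6g, the antigen by which mouse neutrophils are usually sorted, stood between 6.89 and 19.5 TPM. The 34 genes together held 6.19%, 7.25% and 6.30% of all TPM in TREM2+ replicates 1, 2 and 3 and 9.63%, 10.8% and 9.08% in TREM2- replicates 1, 2 and 3. Within these shares Lyz2 alone, which monocytes and macrophages also make, held 2.98%, 3.73% and 2.83% against 6.67%, 7.05% and 5.53%. The difference between the groups in the summed share is therefore not a measure of neutrophil content.

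The granule genes and the mature genes differed from one another in direction between the groups. Among 18 granule and precursor genes tested, 17 had lower values in the TREM2+ libraries, where 8406 of all 13788 genes tested did. The 17 include Lcn2, at a log2 fold change of -0.02. The median log2 fold change of the 18 was -1.10, against -0.09 over all genes tested. Among 15 mature and activated genes, 11 had higher values in the TREM2+ libraries, where 5382 of all 13788 genes tested did, with a median of 0.34. Most of these differences did not pass the test. With limma and an adjusted p under 0.05, the niacin and ketone body receptor gene Hcar2 rose and the cathelicidin gene Camp fell, which is 1 of 33 genes in each direction, where 2.05% of all genes tested were called higher, 0.37% lower and 2.42% either way. With 1 gene in each direction, nothing is read from these shares. At an unadjusted p under 0.05, 13 granule genes were lower and 1 was higher, where 5.34% of all genes were lower and 7.45% higher, and 7 mature genes were higher and 1 was lower. The groups did not overlap, with TREM2+ below TREM2-, in 10 granule genes and 0 mature genes, where this held for 7.62% of all genes tested. They did not overlap, with TREM2+ above, in 1 granule gene and 7 mature genes, where it held for 9.07%. In both directions together that is 18 of 33, where it held for 16.7%. In bulk RNA, fewer cells of a type and less RNA per cell cannot be told apart.

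**Figure D1:**
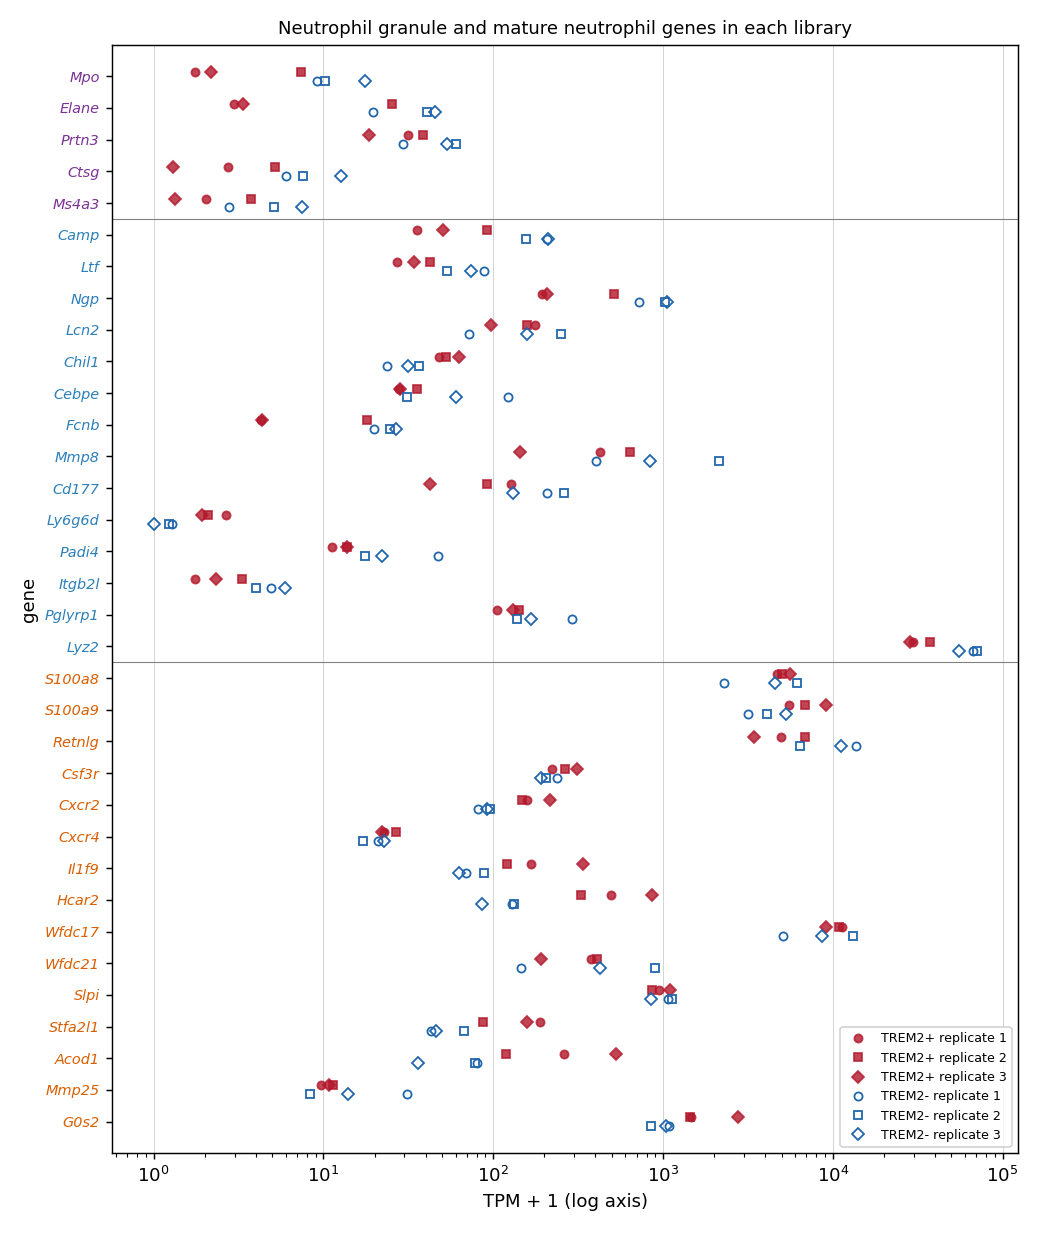
TPM + 1 of each gene on a log axis in the 3 TREM2+ libraries (filled red) and the 3 TREM2- libraries (open blue), 1 point per library. Primary granule genes (top, purple names) lay below 100 TPM in every library, while Lyz2 lay at 28336 TPM or above.

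**Figure D2:**
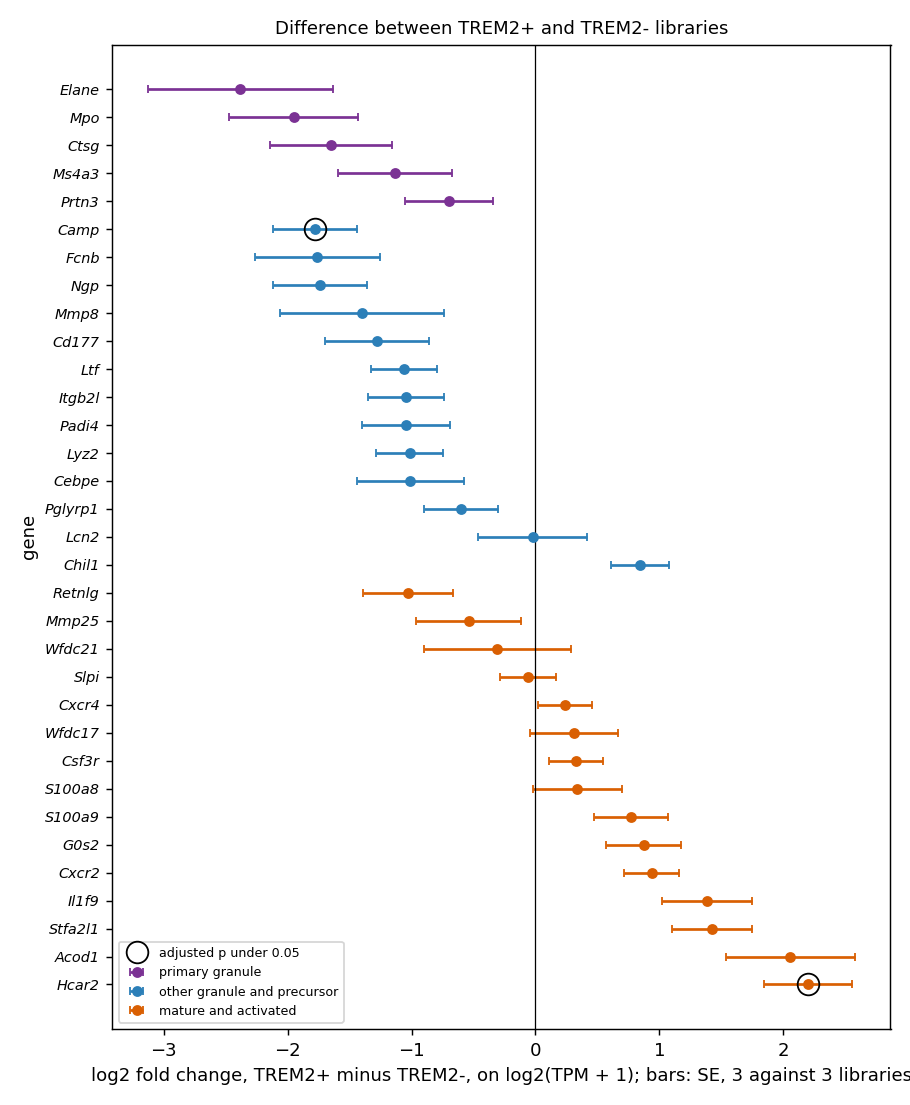
Log2 fold change of each tested gene, TREM2+ minus TREM2-, with its standard error over 3 against 3 libraries. Camp and Hcar2, ringed, passed the adjusted threshold, and 17 of 18 granule genes lie left of 0.

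Primary granule genes encode the enzymes made first in neutrophil development. All 5 had lower values in the TREM2+ libraries, with log2 fold changes between -2.38 and -0.70. None passed the test in limma. At an unadjusted p under 0.05, 4 were lower, where 5.34% of all genes tested were. Myeloperoxidase, Mpo (ENSMUSG00000009350.13, chromosome 11, 87793581 to 87804413, mm10), makes hypochlorous acid in the phagosome. It stood at 0.76, 6.39 and 1.18 TPM in TREM2+ replicates 1, 2 and 3 and at 8.13, 9.24 and 16.6 TPM in TREM2- replicates 1, 2 and 3. All 3 TREM2+ libraries lay below all 3 TREM2- libraries, and replicate 2 was the highest of its group. The log2 fold change was -1.95 ± 0.52 (SE), with an adjusted p of 0.112 in limma.

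Neutrophil elastase, Elane (chromosome 10, 79886247 to 79888215), stood at 1.98, 24.5 and 2.37 TPM in the TREM2+ libraries and at 18.7, 39.7 and 44.4 TPM in the TREM2- libraries. The groups overlapped because TREM2+ replicate 2 lay above TREM2- replicate 1. Its log2 fold change of -2.38 ± 0.75 (SE) was the farthest from 0 of all 33 genes, with an adjusted p of 0.186 in limma. The protease cathepsin G, Ctsg, rested on 14, 31 and 2 reads in the TREM2+ and 46, 51 and 78 reads in the TREM2- libraries, and its groups did not overlap. Ms4a3, a membrane protein gene of granulocyte and monocyte progenitors, stood at 1.37 ± 1.25 against 4.14 ± 2.37 TPM (SD, n = 3). Without TREM2+ replicate 2, the highest of its group in all 3, Mpo, Elane and Ctsg passed the threshold, at log2 fold changes of -2.59, -3.39 and -2.14. With any other single library left out, the adjusted p in limma was 0.122 to 0.404 for Elane and 0.0921 to 0.362 for Ctsg. For Mpo it was 0.0492 without TREM2- replicate 2 and 0.181 to 0.308 otherwise.

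Proteinase 3, Prtn3, is the direct neighbour of Elane on chromosome 10 (79874476 to 79883174), and did not show the same values. It stood at 30.5, 37.4 and 17.4 TPM in the TREM2+ libraries and at 28.4, 59.3 and 52.6 TPM in the TREM2- libraries, with overlap of the groups. Per length, Prtn3 exceeded Elane by 15.4, 1.53 and 7.35 times in TREM2+ replicates 1, 2 and 3 and by 1.52, 1.50 and 1.18 times in TREM2- replicates 1, 2 and 3. The proteases were thus close to 1 ratio in 4 libraries, and apart in TREM2+ replicates 1 and 3, where Elane rested on 15 reads each and Prtn3 on 407 and 194. Exons of Plppr3, on the opposite strand and ending at 79874634, overlap those of Prtn3 at 1 end, and Plppr3 stood between 1.64 and 4.43 TPM. Without a stated strand setting, reads within the shared stretch cannot be assigned to 1 of the 2 genes.

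All 5 primary granule genes were highest in replicate 2 within the TREM2+ group, and 4 of the 5 were highest in replicate 3 within the TREM2- group. The same 2 libraries were those richest in red blood cell genes, whose 6 members summed to 26389 TPM in TREM2+ replicate 2 and 30661 TPM in TREM2- replicate 3, and to between 4230 and 9992 TPM in the other 4. None of those 6 genes passed the test in limma, also at an unadjusted p under 0.05, and none was at 0 in any library. Their part in the result was not tested.

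Promoters of the 2 genes with the smallest p among those with a promoter entry, in each of the 3 groups, are shown for comparison of the sequences upstream of genes with differences of opposite sign. They run from 250 bases before to 50 bases after the RefSeq start, on GRCm38.p6, 5′ to 3′ on the strand of the gene. Capitals mark matches on either strand to AGGAAG, the core bound by ETS factors such as PU.1, to TTNNGNAA, a loose C/EBP site, and to TATAAA. Mpo lies at chr11:87793534-87793833 on the plus strand and Ctsg at chr14:56102525-56102824 on the minus strand, both with 3 matches to AGGAAG.
Mpo: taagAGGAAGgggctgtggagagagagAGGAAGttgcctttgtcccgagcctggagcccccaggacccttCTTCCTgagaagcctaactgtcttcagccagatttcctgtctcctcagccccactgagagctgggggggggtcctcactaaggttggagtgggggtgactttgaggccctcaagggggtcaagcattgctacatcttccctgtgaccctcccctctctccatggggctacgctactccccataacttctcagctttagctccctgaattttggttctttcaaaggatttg
Ctsg: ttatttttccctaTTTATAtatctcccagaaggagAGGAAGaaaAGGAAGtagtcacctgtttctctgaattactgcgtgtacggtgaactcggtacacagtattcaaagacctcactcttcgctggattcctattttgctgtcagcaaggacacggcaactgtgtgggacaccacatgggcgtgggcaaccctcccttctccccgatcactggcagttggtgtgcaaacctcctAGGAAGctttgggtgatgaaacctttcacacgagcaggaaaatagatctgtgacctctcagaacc

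The cathelicidin gene Camp lies at chr9:109849407-109849706 on the minus strand, with 2 matches to AGGAAG. The granule protein gene Ngp lies at chr9:110419558-110419857 on the plus strand, with 3 matches to TTNNGNAA and none to AGGAAG.
Camp: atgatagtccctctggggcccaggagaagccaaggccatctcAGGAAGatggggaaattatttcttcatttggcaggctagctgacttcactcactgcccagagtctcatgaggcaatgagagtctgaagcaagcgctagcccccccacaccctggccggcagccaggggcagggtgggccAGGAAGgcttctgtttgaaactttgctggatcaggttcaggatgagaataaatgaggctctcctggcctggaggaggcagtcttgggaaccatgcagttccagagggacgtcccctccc
Ngp: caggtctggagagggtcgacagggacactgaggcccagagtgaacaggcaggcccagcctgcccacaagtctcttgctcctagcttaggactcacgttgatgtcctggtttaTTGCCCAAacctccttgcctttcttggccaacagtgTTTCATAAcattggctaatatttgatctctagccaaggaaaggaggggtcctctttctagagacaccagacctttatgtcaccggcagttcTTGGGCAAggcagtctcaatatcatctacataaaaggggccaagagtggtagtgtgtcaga

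Of the mature genes, the stefin gene Stfa2l1 lies at chr16:36156561-36156860 and the chemokine receptor gene Cxcr2 at chr1:74153744-74154043, both on the plus strand. Hcar2 had the smallest p of this group, and its promoter was not analysed here.
Stfa2l1: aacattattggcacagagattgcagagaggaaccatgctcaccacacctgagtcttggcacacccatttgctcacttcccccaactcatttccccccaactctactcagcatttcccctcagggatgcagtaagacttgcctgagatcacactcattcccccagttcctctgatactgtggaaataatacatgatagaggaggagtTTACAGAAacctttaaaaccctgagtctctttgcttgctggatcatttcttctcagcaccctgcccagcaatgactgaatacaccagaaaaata
Cxcr2: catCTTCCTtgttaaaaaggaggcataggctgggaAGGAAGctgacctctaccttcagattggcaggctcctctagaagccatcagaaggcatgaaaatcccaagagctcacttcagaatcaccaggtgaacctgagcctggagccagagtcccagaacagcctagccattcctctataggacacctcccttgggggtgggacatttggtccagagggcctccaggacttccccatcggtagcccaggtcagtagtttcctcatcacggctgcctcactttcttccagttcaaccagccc

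A promoter entry was matched for 31 of the 34 genes. AGGAAG was found in 5 of 5 primary granule promoters, 10 of 13 other granule promoters and 7 of 13 mature promoters, and in 35.1% of all 27025 mouse promoters of the same length. TTNNGNAA was found in 1 of 5, 9 of 13 and 7 of 13, and in 40.7% of all. TATAAA was found in 1 of 5, 3 of 13 and 5 of 13, and in 14.2% of all. The NF-kB consensus and the AP-1 pattern TGANTCA were each found in 1 of the 31, Pglyrp1 and Padi4, and in 0.4% and 7.9% of all promoters. Matches of different patterns may overlap, and each is a description of letters only.

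Secondary and tertiary granule genes encode antimicrobial proteins and matrix proteases stored for release. Camp (ENSMUSG00000038357.10), which encodes the precursor of the antimicrobial peptide CRAMP, stood at 34.6, 91.0 and 49.9 TPM in the TREM2+ libraries and at 206, 155 and 208 TPM in the TREM2- libraries. Every TREM2+ library lay below every TREM2- library. Camp fell by 1.78 ± 0.34 on the log2 scale (SE), with an adjusted p of 0.0308 in limma and a range of 0.00719 to 0.437 over the alternatives. The call ended without TREM2+ replicate 1 (adjusted p = 0.063), without TREM2+ replicate 3 (adjusted p = 0.0826), without TREM2- replicate 1 (adjusted p = 0.103) and without TREM2- replicate 3 (adjusted p = 0.124). It also ended under median-of-ratios scaling (adjusted p = 0.0538), quantile normalization (adjusted p = 0.0571) and without the repeat family (adjusted p = 0.0552), with all genes above 0 tested (adjusted p = 0.15) and without both libraries numbered 3 (adjusted p = 0.437). With the replicate number as a block it ended too (adjusted p = 0.114).

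The granule genes Ngp, Ltf and Fcnb had values in the same direction as Camp without passing. Lcn2 and Chil1, given below, stood apart. Ngp, a cystatin-like granule protein gene, stood at 194, 513 and 207 TPM in the TREM2+ libraries and at 719, 1027 and 1052 TPM in TREM2- ones, with no overlap and an adjusted p of 0.0532 in limma. Ltf, which encodes the iron binder lactoferrin, stood at 26.0, 41.2 and 33.3 TPM against 87.4, 52.8 and 73.2 TPM, also with no overlap. Fcnb, which encodes the pattern recognition lectin ficolin B, stood at 3.29, 17.0 and 3.37 TPM against 18.9, 23.6 and 25.7 TPM. In Camp, Ngp, Ltf and Fcnb, as in the primary granule genes, TREM2+ replicate 2 was the highest of its group. Within a library Ngp exceeded Camp by 5.13 ± 0.85 times in the TREM2+ and 5.05 ± 1.56 times in the TREM2- libraries (SD, n = 3), so the ratio of these 2 genes differed by less than the spread between replicates.

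The collagenase gene Mmp8 and the surface antigen gene Cd177 were highest in replicate 2 among the TREM2- libraries. Mmp8 stood at 422, 639 and 144 TPM in the TREM2+ and at 404, 2126 and 839 TPM in the TREM2- libraries, with TREM2- replicate 2 far above the rest and overlap of the groups. Cd177, which marks a subset of neutrophils, stood at 126, 91.1 and 41.6 TPM against 207, 261 and 129 TPM, with no overlap and an adjusted p of 0.204 in limma. Itgb2l, an integrin beta subunit gene, stood at 1.46 ± 0.78 against 3.97 ± 0.98 TPM (SD, n = 3), on 25 to 152 reads.

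Cebpe, the transcription factor of late granule genes, stood at 27.0, 34.5 and 27.2 TPM in the TREM2+ libraries and at 121, 30.1 and 59.2 TPM in the TREM2- libraries. TREM2- replicates 1 and 3 lay above all TREM2+ libraries, and TREM2- replicate 2 lay within the TREM2+ range. The same order of the TREM2- libraries, with replicate 1 highest and replicate 2 lowest, was seen for Padi4, which encodes the enzyme that citrullinates histones in extracellular traps, at 46.5, 16.6 and 21.2 TPM in replicates 1, 2 and 3. It was also seen for the bacterial cell wall binder Pglyrp1, at 291, 137 and 167 TPM, and for Ltf, at 87.4, 52.8 and 73.2 TPM. The summed eosinophil markers showed this order too, though only 3 of the 5 genes did so singly, with a summed level of 512, 184 and 377 TPM in TREM2- replicates 1, 2 and 3 and of 87.7 to 195 TPM in the TREM2+ libraries. All 5 of them had lower values in the TREM2+ libraries, and none was at 0 in any library. None passed the test in limma, with 2 lower at an unadjusted p under 0.05, where 5.34% of all genes tested were. Their part in the values of Cebpe, Padi4, Pglyrp1 and Ltf was not tested. Basophil and mast cell markers summed to 221, 118 and 135 TPM against 18.3 to 27.4 TPM, with none at 0 in any library. All 7 had lower values in the TREM2+ libraries. Of these, 3 passed the test in limma (Prss34, Mcpt8 and Cpa3), where 0.37% of all genes tested were called lower. The sums of the B cell markers (365, 58.9 and 171 TPM), the T and NK cell markers (2724, 1151 and 1172 TPM) and the hepatocyte markers (433, 60.9 and 67.3 TPM) had the same order in TREM2- replicates 1, 2 and 3. The part of these lists in the granule gene values was not tested.

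Lyz2, lysozyme of neutrophils, monocytes and macrophages alike, was the most abundant of the 34 genes. It made up 2.98%, 3.73% and 2.83% of all TPM in TREM2+ replicates 1, 2 and 3 and 6.67%, 7.05% and 5.53% in TREM2- replicates 1, 2 and 3. The groups did not overlap, and the log2 fold change was -1.02 ± 0.27 (SE) with an adjusted p of 0.115 in limma. Monocyte markers also had lower values, 6 of 6 in the TREM2+ libraries, with a summed level of 1253 to 1893 against 2541 to 4103 TPM and no marker at 0. Of these only Ly6c2 passed the test in limma, where 0.37% of all genes tested were called lower. The part of these markers in the level of Lyz2 was not tested.

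2 granule genes stood apart from the rest. Lcn2, which encodes the siderophore binder lipocalin 2, stood at 176, 157 and 95.7 TPM against 70.7, 249 and 157 TPM, with a log2 fold change of -0.02 ± 0.44 (SE). Its sign changed with the library left out. Chil1, a chitinase-like protein gene, was the 1 tested granule gene with higher values in the TREM2+ libraries, at 46.8, 51.7 and 61.5 TPM against 22.7, 35.3 and 30.7 TPM. Its groups did not overlap, and its adjusted p was 0.134 in limma. Ly6g6d, a gene of the Ly6 superfamily, was too low to be tested, with 15, 9 and 7 reads in the TREM2+ and 3, 2 and 0 reads in the TREM2- libraries. A count of 0 allows up to 3 reads, or 0.398 TPM, in TREM2- replicate 3. Exons of Ly6g6e, on the opposite strand, overlap those of Ly6g6d, and reads within the shared stretch cannot be assigned without a stated strand setting. Ly6g6e itself rose, at 4.36 ± 0.24 against 0.66 ± 0.39 TPM (SD, n = 3), with an adjusted p of 0.0124 in limma.

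**Figure D3:**
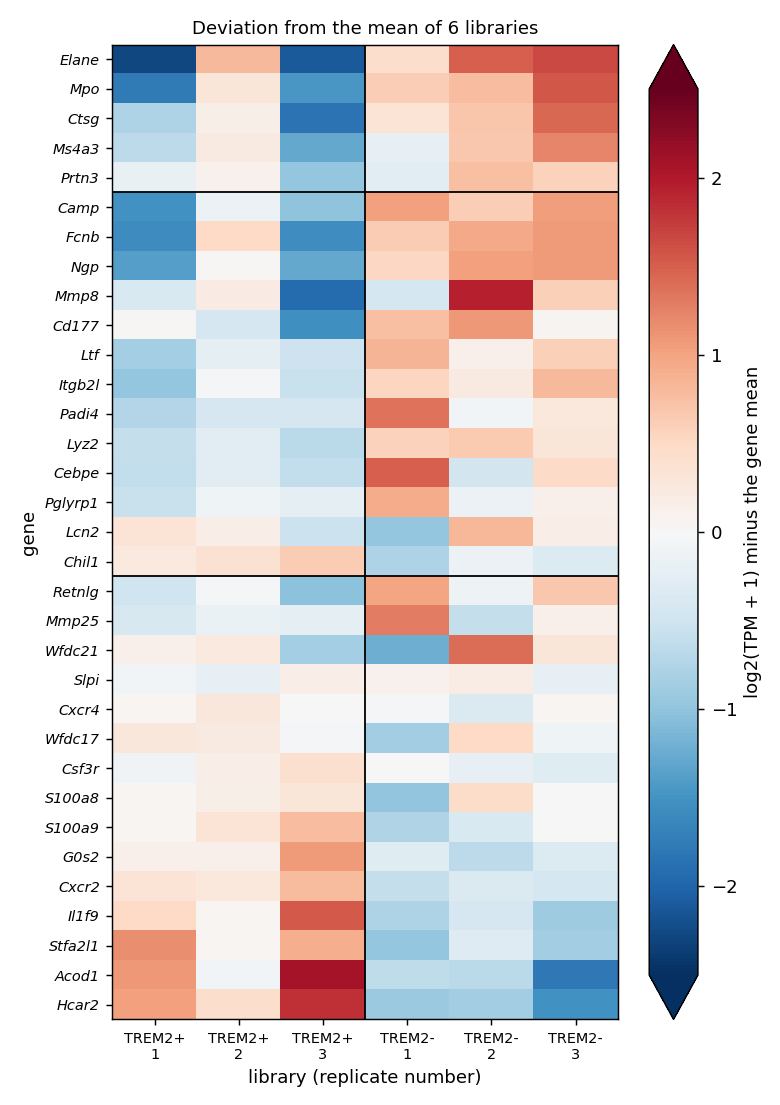
Each tested gene's log2(TPM + 1) in each library minus its mean over the 6 libraries, with granule genes above and mature genes below. Most granule genes lie below their mean in TREM2+ replicates 1 and 3, the exceptions being Chil1 in both and Lcn2 and Cd177 in replicate 1, and Hcar2 and Acod1 are high there.

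Mature neutrophils are recruited through receptors, and 4 receptor genes were among the members. Cxcr2, the receptor for neutrophil-attracting CXC chemokines, stood at 156, 147 and 214 TPM in the TREM2+ libraries and at 80.3, 94.9 and 90.4 TPM in the TREM2- libraries. The groups did not overlap, and the log2 fold change was 0.94 ± 0.22 (SE) with an adjusted p of 0.0746 in limma. Csf3r, the receptor for granulocyte colony-stimulating factor, stood at 266 ± 44.6 against 211 ± 24.3 TPM (SD, n = 3), with overlap. Cxcr4, which retains neutrophils in the marrow, stood at 22.9 ± 2.52 against 19.3 ± 2.87 TPM, also with overlap.

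Hcar2 (ENSMUSG00000045502.6, chromosome 5), the receptor for niacin and beta-hydroxybutyrate, rose in the TREM2+ libraries. It stood at 496, 329 and 862 TPM in the TREM2+ and at 127, 132 and 84.6 TPM in the TREM2- libraries. All 3 TREM2+ libraries lay above all 3 TREM2- libraries. The log2 fold change was 2.20 ± 0.36 (SE), with an adjusted p of 0.0167 in limma and a range of 0.00359 to 0.168 over the alternatives. The call ended without TREM2- replicate 1 (adjusted p = 0.0547) and without TREM2- replicate 3 (adjusted p = 0.0776), as well as with all genes above 0 tested (adjusted p = 0.102) and without both libraries numbered 3 (adjusted p = 0.168). With the replicate number as a block it ended too (adjusted p = 0.0939).

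Acod1, Il1f9, Stfa2l1 and G0s2 lay in the same direction as Hcar2, and none of them passed the test in limma. Retnlg, Mmp25, Wfdc21 and Slpi, given below, had lower values in the TREM2+ libraries. Acod1, whose enzyme makes itaconate in activated myeloid cells, stood at 261, 118 and 524 TPM in the TREM2+ and at 79.3, 76.9 and 35.1 TPM in the TREM2- libraries, with an adjusted p of 0.0948 in limma. Il1f9, which encodes the cytokine IL-36 gamma, stood at 165, 120 and 339 TPM against 67.9, 86.7 and 62.2 TPM, with an adjusted p of 0.106 in limma. Stfa2l1, a stefin, stood at 188, 86.0 and 158 TPM against 42.3, 66.6 and 45.3 TPM, with an adjusted p of 0.0637 in limma. It belongs to a family of similar copies that counting could split. In these 3 genes the groups did not overlap and TREM2+ replicate 2 was the lowest of its group. G0s2, which encodes an inhibitor of triglyceride breakdown, stood at 1458, 1448 and 2782 TPM against 1082, 846 and 1045 TPM. Its groups again did not overlap, and its adjusted p was 0.235 in limma.

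The calprotectin subunits, which form 1 complex, did not show the same values. S100a9 stood at 5526, 6854 and 9154 TPM in the TREM2+ and at 3181, 4116 and 5320 TPM in TREM2- ones, with no overlap and an adjusted p of 0.298 in limma. S100a8 stood at 4680, 5004 and 5607 TPM against 2294, 6186 and 4581 TPM, with overlap, since TREM2- replicate 2 was the highest of the 6 libraries. Per length, S100a8 stood at 0.85, 0.73 and 0.61 times the level of S100a9 in the TREM2+ libraries and at 0.72, 1.50 and 0.86 times in the TREM2- libraries. The sign of the S100a8 difference rested on TREM2- replicate 1, without which the log2 fold change was -0.067, and it also turned with library weights.

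Small secreted proteins with a WAP domain, which inhibit proteases of neutrophils or resemble such inhibitors, showed no difference beyond the spread between replicates. Slpi, the inhibitor of elastase and cathepsin G, stood at 969 ± 125 against 1013 ± 144 TPM (SD, n = 3). Wfdc17 stood at 10422 ± 1169 against 8983 ± 4070 TPM and was second to Lyz2 in the mean of the TREM2+ libraries. Wfdc21 stood at 377, 409 and 190 TPM against 146, 900 and 423 TPM, with TREM2- replicate 2 highest as for Mmp8 and Lcn2.

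Of the mature genes, 4 had lower values in the TREM2+ libraries: Retnlg, Mmp25, Wfdc21 and Slpi. Retnlg, a resistin-like hormone gene of neutrophils, stood at 4973, 6838 and 3455 TPM in the TREM2+ and at 13792, 6439 and 11195 TPM in the TREM2- libraries. TREM2+ replicate 2 lay above TREM2- replicate 2, so the groups overlapped, and the adjusted p was 0.254 in limma. The membrane-bound protease gene Mmp25 stood at 8.66, 10.3 and 9.75 TPM against 30.1, 7.38 and 12.9 TPM. Both had replicate 1 highest and replicate 2 lowest among the TREM2- libraries, as did G0s2. This is the order given above for Cebpe, Padi4, Pglyrp1, Ltf and the sums of 5 marker lists.

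Summed over genes, the 15 mature genes stood at 30814, 33337 and 33836 TPM in the TREM2+ and at 27344, 33510 and 32594 TPM in the TREM2- libraries, which overlap. Most of this sum came from Wfdc17, S100a9, Retnlg and S100a8 in every library. Retnlg and S100a9 differed in opposite directions between the groups, so similar sums are not a measure of mature neutrophil content. The 5 primary granule genes summed to 36.0, 75.3 and 21.6 TPM against 62.0, 119 and 132 TPM, also with overlap. The 13 other granule genes without Lyz2 summed to 1171, 1793 and 808 TPM against 2199, 4118 and 2767 TPM, without overlap. As a description, the mean log2(TPM + 1) of the 18 granule genes minus that of the 15 mature genes was -4.00, -3.03 and -4.47 in TREM2+ replicates 1, 2 and 3 and -2.17, -2.19 and -1.91 in TREM2- replicates 1, 2 and 3. TREM2+ replicate 2 lay nearest to the TREM2- libraries. The ratio of Camp to Cxcr2, 1 gene of each kind chosen after their values were seen, was 0.22, 0.62 and 0.23 against 2.56, 1.64 and 2.30.

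**Figure D4:**
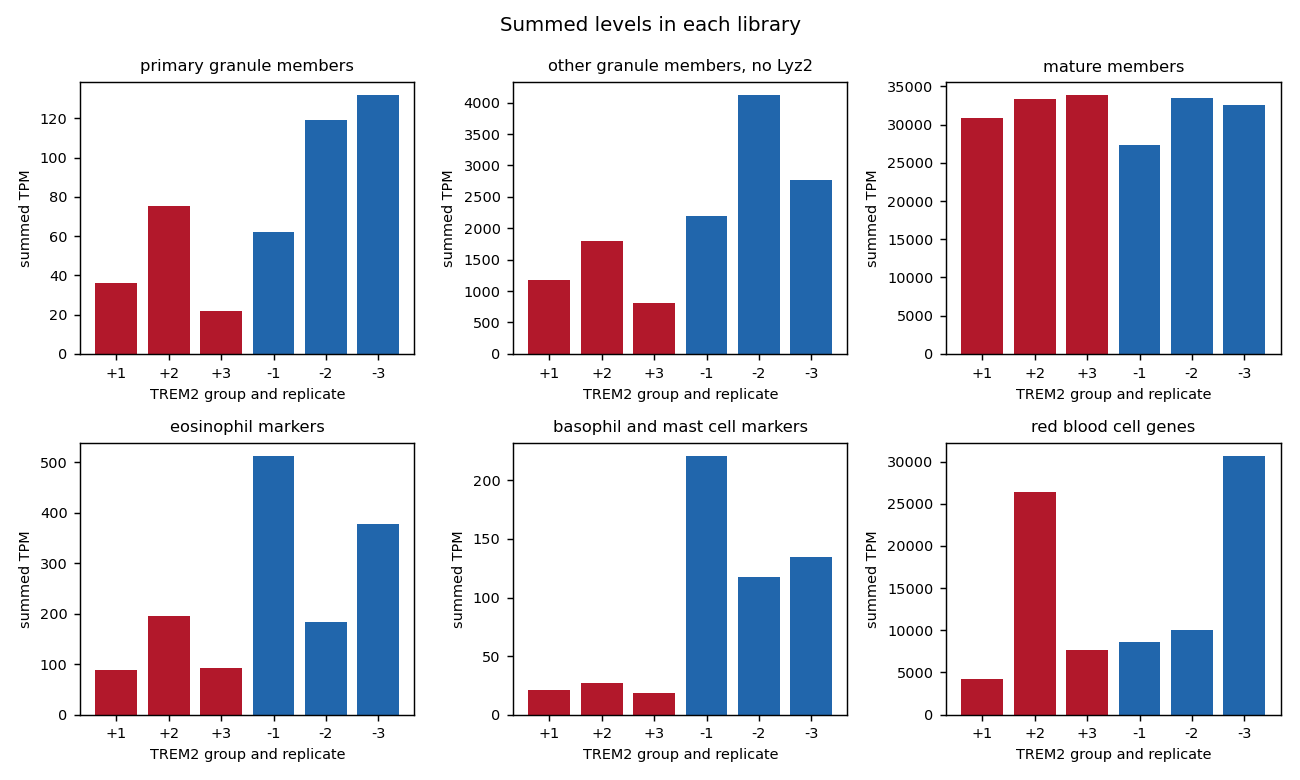
Summed TPM of 3 groups of members and of 3 lists of other cell types in each library (red, TREM2+ replicates 1 to 3; blue, TREM2- replicates 1 to 3; bars start at 0 and are single libraries without error). Mature genes lie between 27344 and 33836 TPM in all 6, and red blood cell genes are highest in TREM2+ replicate 2 and TREM2- replicate 3.

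Other genes of the same stages were read from lists that hold none of the 35 symbols. These lists too were chosen with earlier results of these data known, so they are not an independent check. Of 10 tested granule and precursor genes outside the members, 6 had higher and 4 lower values in the TREM2+ libraries, with a median log2 fold change of 0.47. In limma 1 was called higher and 1 lower, where 2.05% of all genes tested were called higher and 0.37% lower. The elastase inhibitor gene Serpinb1a fell by 1.37 ± 0.24 (SE), and the annexin gene Anxa3 rose by 1.20 ± 0.21, with adjusted p-values of 0.0215 and 0.0237 in limma. Haptoglobin, Hp, stood at 903 ± 291 against 1784 ± 368 TPM (SD, n = 3), with no overlap and no call. Their median had the opposite sign to that of the granule members.

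Of 27 tested mature and activated genes outside the members, 19 had higher and 8 lower values in the TREM2+ libraries, with a median of 0.61. Over all 13788 genes tested, 5382 had higher and 8406 lower values. In limma 1 was called higher and 1 lower, where 2.05% of all genes tested were called higher and 0.37% lower. Asprv1, a retroviral-like aspartic protease gene, rose by 1.35 ± 0.25 (SE), and the interferon-induced membrane protein gene Ifitm6 fell by 1.26 ± 0.26. The C-type lectin gene Clec4d stood at 204 ± 65.0 against 80.7 ± 24.0 TPM, and the MYC antagonist gene Mxd1 at 149 ± 23.2 against 75.0 ± 14.1 TPM (SD, n = 3), with no overlap of either. Among 5 tested neutrophil attractants, 4 had higher values in the TREM2+ libraries. In limma 3 were called higher, namely Cxcl1, Cxcl2 and Cxcl3, which are ligands of Cxcr2, where 2.05% of all genes tested were. Cxcl3 stood at 280 ± 123 against 46.3 ± 18.9 TPM. Cell division genes are made by granulocyte precursors and many other cells. They summed to 68.7, 91.6 and 58.6 TPM in the TREM2+ and 111, 101 and 84.6 TPM in the TREM2- libraries. In limma 0 of 8 passed, with 1 (Ccnb2) lower at an unadjusted p under 0.05, where 5.34% of all genes tested were.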

How the data were processed

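RNA-seq was measured in 3 TREM2+ and 3 TREM2- libraries. Per the submitters' processing notes, the tools were STAR 2.7.10a, Subread and featureCounts 2.0.3, on mm10. The sources used here give no annotation release, strand setting or formula. The authors deposited a length-scaled signal named TPM, of which the 6 columns together sum to 1000000. Each column was rescaled here to 1000000 and called TPM. Whole reads were recovered with GENCODE M21 exon lengths: 98.7% of 36673 matched rows above 0 were whole within 0.01 read in every library. No column lacked a sample. Reads carry no molecular identifiers, so floors cover counting error only.

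limma 3.58.1 (R 4.3.3) was run two-sided on log2(TPM + 1) for genes reaching 1 TPM in 3 or more libraries. It used a mean-variance trend, and p-values were Benjamini-Hochberg adjusted over all genes tested, with 0.05 as threshold. Fold changes on this scale understate the change of low genes. The fit was tested on simulated data, in which false calls exceeded the nominal threshold. Replicates of 1 group differed beyond sampling noise (chi-square over its degrees of freedom at least 77.75). All members are named, and genes of the other lists are drawn from the 4 with the smallest p in each, except Ly6g, a listed neutrophil marker, and Ly6g6e and Plppr3, named because they overlap members; 1 result is not reported here. Members and lists were chosen with earlier results of these data known. Promoters are those of RefSeq on GRCm38.p6.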

Additional observations from a re-analysis of the deposited data

How the results depend on the processing

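The count of members called higher, 1 in the reported fit, was 5 with a mean of at least 10 reads, 2 on the deposited values, 6 with library weights, and 0 with any value above 0, with the replicate block and without both libraries numbered 3. The count called lower, also 1, was 3 with at least 10 reads, 6 on the deposited values, 4 with voom on recovered reads and 9 with library weights. It was 0 with any value above 0, median-of-ratios scaling, quantile normalization, without the repeat family, with the replicate block and without both libraries numbered 3. Leaving out 1 library gave a range of 0 to 4 higher and 0 to 6 lower: without TREM2+ replicate 2 they were 4 and 6, without TREM2- replicate 2 also 4 and 6, and without TREM2- replicate 1 or 3 they were 0 and 0. Over all genes tested, calls ranged from 0 to 976 higher and 0 to 389 lower, with library weights giving the most and the fit without both libraries numbered 3 none (1080 genes at an unadjusted p under 0.05). The share of calls that were higher was 84.7% in the reported fit, 69.1% on the deposited values, 73.8% without the repeat family and 72.1% with voom. It was 96.9% with any value above 0, 97.1% without TREM2- replicate 1, and 92.1% both with the replicate block and without TREM2- replicate 3.

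Signs of the log2 fold change turned for 6 genes, none of them called, and the cause was not tested. Lcn2 was 0.061 with median-of-ratios scaling and 0.318 without both libraries numbered 3, and ranged from -0.513 to 0.388 with 1 library left out. S100a8 was -0.201 with library weights and ranged from -0.067 to 0.649. Wfdc17 was -0.086 with quantile normalization and -0.104 with library weights, and ranged from -0.042 to 0.645. Wfdc21 was 0.113 without both libraries numbered 3 and ranged from -1.0 to 0.309. Slpi was 0.024 with median-of-ratios scaling and ranged from -0.183 to 0.021. Mmp25 was 0.066 with library weights.

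The median log2 fold change of the granule members lay between -1.42 and -0.99 and that of the mature members between 0.25 and 0.65 over all settings. Same-numbered libraries correlated at 0.19, -0.03 and 0.22 in their deviations, and differently numbered ones at between -0.376 and 0.131. The values for numbers 1 and 3 were the highest of all, so these correlations do not settle whether the numbers are pairs. The reported fit uses no pairing. The replicate block gave 116 higher and 10 lower over all genes, and ended the calls of Camp (adjusted p = 0.114) and Hcar2 (adjusted p = 0.0939). Primary granule genes other than Prtn3 rest on few reads in TREM2+ replicates 1 and 3, which limits their precision.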
